A study of Mus musculus with 2 samples.

Results

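Complex I and complex IV of the mitochondrial respiratory chain are built from subunits encoded in the nucleus and in the mitochondrion, and the genes described here are the nuclear ones. They were taken by symbol, as genes whose names start with *Nduf* or with *Cox4i*, *Cox5*, *Cox6*, *Cox7* or *Cox8* and without symbols that end in -ps and a number or start with Gm. Of the 33696 genes counted, 68 had a matching symbol, and 66 of these had at least 10 unique molecular identifiers (UMIs, counted transcripts) over all cells and were kept. *Cox8c* (7 UMIs) and *Ndufb11b* (0 UMIs) were not. The 66 genes comprised 7 core and 30 accessory subunits of complex I, 8 complex I assembly factors, 18 complex IV subunits, the *Ndufa4* paralog *Ndufa4l2* and 2 close copies, *Cox5b-ps* and *Ndufb4b*. Reads of the copies may be split with *Cox5b* and *Ndufb4*, so that the values of these 4 genes are uncertain, and the copies were left out of the subunit lists.

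The cells came from hindlimb digits 2 and 4 of ICR mice, amputated through the second phalanx (P2) at postnatal day 3. At postnatal day 7 each digit received 1 agarose bead carrying FGF8, a growth factor that the study used to induce joint regeneration, or BSA, the control protein, and tissue distal to the stump was collected 24 h later, at postnatal day 8, after the surrounding epithelium was taken off. Each library held the cells of 20 digits from 5 mice, male and female together, so each condition is 1 library, no p-value can be given, and treatment, animals, dissection and library cannot be told apart. All intervals below are 95% intervals of counting error only. The BSA library held 3703 barcodes and 67739460 UMIs, and the FGF8 library 7249 barcodes and 124889213 UMIs, of which 3252 and 6715 barcodes passed the study's filters on genes and mitochondrial share, with medians of 15377 and 12251 UMIs. The libraries shared 6 barcodes. Of the cells whose sex could be called from sex-linked transcripts, 79.3% were female in the BSA library and 24.6% in the FGF8 library.

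Complex I takes electrons from NADH and passes them to ubiquinone, and complex IV hands electrons from cytochrome c to oxygen. The core subunits of complex I hold the flavin and iron-sulfur clusters that carry the electrons, while accessory subunits stabilise the complex and assembly factors are needed only while it is built. Several complex IV subunits exist as isoform pairs, a ubiquitous form and a form known from muscle, lung, testis or cells at low oxygen, and *Cox4i2* and *Ndufa4l2* are such forms known from vessel-associated cells and low oxygen.

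Promoters of respiratory genes are known targets of the factor NRF1 and of ETS factors, and RefSeq promoter windows (GRCm38.p6, 250 bases before to 50 bases after the start) were available for 55 of the 66 genes. A gene was counted once if any of its windows held the letters, and all genes with a window were set beside them, whether detected here or not. The NRF1 letters, GCGCA, any base and then GCGC, searched on both strands, were present for 10 of the 55 genes (18.2%) and for 1402 of all 27025 genes (5.19%). The ETS letters CCGGAAG were present for 9 genes (16.4%), against 9.93% of all genes, and either motif for 18 (32.7%), against 14.0%. Matches of both motifs may overlap at their ends. A match is a description of the letters and not of a bound site. Stretches with NRF1 letters on either strand, in capitals, are shown for 3 genes found at the ends of the comparison below (*Ndufb4*, which was lower in the FGF8 library, and *Ndufaf4* and *Ndufa8*, which were higher) and for *Cox6a1*, a ubiquitous isoform. They lie at chr16:37654369-37654579 (*Ndufb4*, minus strand), chr4:24897950-24897999 (*Ndufaf4*, plus strand), chr2:36049339-36049388 (*Ndufa8*, minus strand) and chr5:115349046-115349140 (*Cox6a1*, minus strand), all upstream of the start.
Ndufb4: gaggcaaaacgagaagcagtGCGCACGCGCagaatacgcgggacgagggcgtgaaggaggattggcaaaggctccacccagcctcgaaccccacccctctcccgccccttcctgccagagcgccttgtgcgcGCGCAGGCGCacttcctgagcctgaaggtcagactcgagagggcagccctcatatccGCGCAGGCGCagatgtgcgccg
Ndufaf4: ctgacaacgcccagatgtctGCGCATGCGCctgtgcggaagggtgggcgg
Ndufa8: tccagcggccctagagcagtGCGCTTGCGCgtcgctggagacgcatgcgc
Cox6a1: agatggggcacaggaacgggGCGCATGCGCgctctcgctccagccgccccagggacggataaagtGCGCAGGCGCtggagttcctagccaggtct
The stretch of *Ndufb4* held 3 matches and that of *Cox6a1* 2, so that genes with NRF1 letters stood on both sides of the comparison between the libraries.

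To determine how much of each cell type's RNA these genes made up, their UMIs were added up over the cells of each type in each library. A UMI of a 3′ library stands for 1 captured transcript whatever its length, so the UMIs of different genes were set side by side per 1000000 UMIs (CPM) without scaling by length. Over all cells the 66 genes held 1.23% of the UMIs in the BSA library and 1.17% in the FGF8 library, with 25 log2 ratios of FGF8 over BSA above 0 (39.8% of all genes). The 37 complex I subunits held 0.632% and 0.610% and the 18 complex IV subunits 0.556% and 0.521%, so that the level per gene was higher for complex IV. *Cox4i1*, the ubiquitous form of the largest nuclear subunit of complex IV, was highest of all with 996 CPM (BSA) and 989 CPM (FGF8), followed by *Cox8a* (685 and 644 CPM), *Cox6c* (657 and 507 CPM), *Cox7c* (604 and 529 CPM) and *Cox6b1* (461 and 408 CPM). The 12 complex IV subunits that are not cell-type isoforms had a median of 363 CPM (BSA) and 398 CPM (FGF8). Complex I accessory subunits had medians of 164 and 149 CPM, the 6 core subunits described here of 112 and 121 CPM, and assembly factors of 23.7 and 24.7 CPM. The RNA of proteins that stay in the complexes was thus several times that of the factors that assemble them.

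Cell types differed more than the libraries did. Smooth muscle or pericyte-like cells (185 BSA and 282 FGF8 cells), the contractile cells of vessel walls, were highest, with 1.83% of UMIs in the BSA library and 1.63% in the FGF8 library. In the BSA library keratinocyte-like cells followed with 1.50%, ahead of macrophage-like (1.39%) and mast-like cells (1.38%). In the FGF8 library mast-like cells (1.62%) were close behind them, ahead of keratinocyte-like (1.50%) and macrophage-like cells (1.36%). The fibroblast-like cells, by far the most numerous with 1502 BSA and 2866 FGF8 cells, held 1.20% and 1.21%. Lowest were neutrophil-like cells (0.565% and 0.634%) and erythroid-like cells (0.222% and 0.149%), in which haemoglobin genes took 83.8% and 88.8% of all UMIs. A cluster of low-UMI cells without a name (363 and 718 cells, medians of 1588 and 1699 UMIs) held 0.846% and 0.768%. Single fibroblast-like cells were close together: the median share per cell was 1.18% (quartiles 0.997% and 1.37%) in the BSA library and 1.19% (1.04% and 1.34%) in the FGF8 library.

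**Figure D1:**
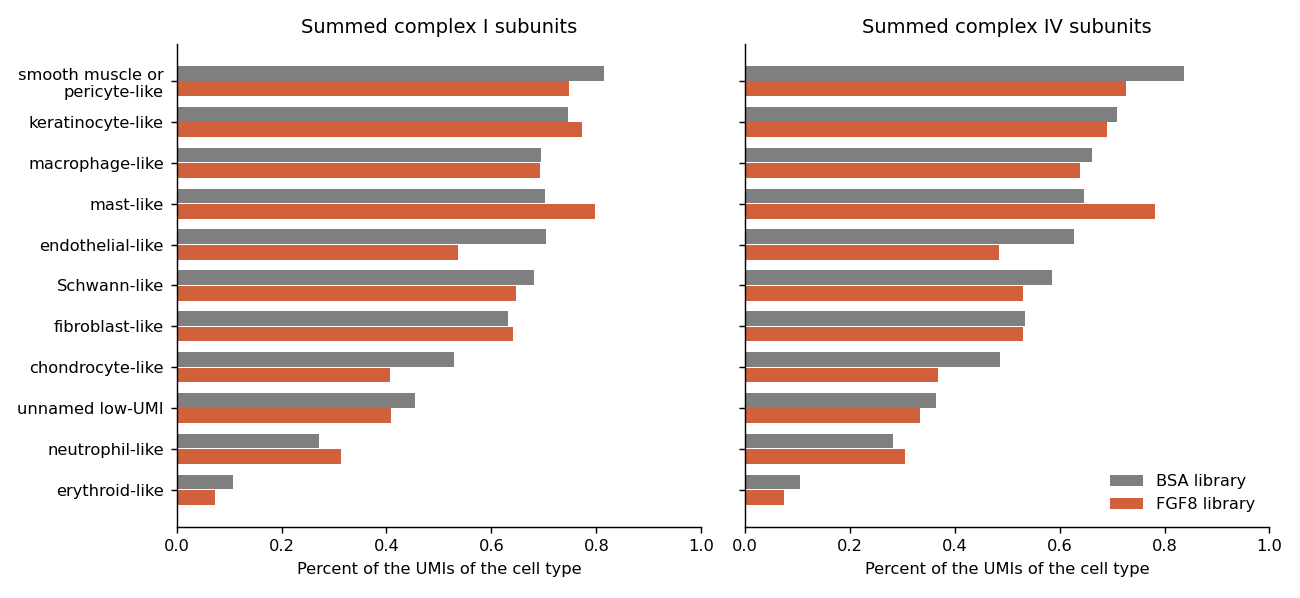
Summed UMIs of complex I subunits (left) and complex IV subunits (right) as a percent of all UMIs of each cell type, with grey bars for the BSA and orange bars for the FGF8 library. The largest shares belong to smooth muscle or pericyte-like cells in the BSA library (0.815% for complex I, 0.837% for complex IV) and to mast-like cells in the FGF8 library (0.797% and 0.782%), while erythroid-like cells hold the smallest in both.

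The cell-type isoforms set smooth muscle or pericyte-like cells apart. *Cox4i2* (GRCm39 chromosome 2, 152595625 to 152606959, plus strand) stood at 1220 CPM in these cells of the BSA library and at 935 CPM in those of the FGF8 library, close to its ubiquitous partner *Cox4i1* (1330 and 1331 CPM). *Cox4i2* therefore made up 47.8% (46.7% to 49.0%) and 41.3% (40.2% to 42.3%) of the pair. Against all other cells of the same library its log2 ratio was 6.06 (5.95 to 6.16) in BSA and 6.37 (6.27 to 6.46) in FGF8. Transcripts of *Cox4i2* were found in 94.1% and 91.5% of the smooth muscle or pericyte-like cells (median depths 14809 and 11141 UMIs), but in only 2.76% and 3.02% of macrophage-like cells (10283 and 9594.5 UMIs). After thinning every cell to 2000 UMIs, which left 179 and 276 smooth muscle or pericyte-like cells, the shares were 74.3% and 65.2%, against 0.957% and 0.713% of macrophage-like cells. *Cox4i2* was itself among the leading genes of the cluster, so these values describe it and are not a test; with all of these genes left out of the clustering the log2 ratios were 6.05 and 6.37.

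*Ndufa4l2* (chromosome 10, 127350818 to 127353038, plus strand), a paralog of the complex IV subunit *Ndufa4* that is known as a target of the hypoxia-inducible factors, was even more one-sided. In smooth muscle or pericyte-like cells it stood at 1408 CPM (BSA) and 1269 CPM (FGF8), while *Ndufa4* stood at 27.7 and 57.2 CPM, its lowest level of any named cell type in the BSA library. *Ndufa4l2* thus took 98.1% (97.6% to 98.5%) and 95.7% (95.1% to 96.2%) of the pair, against 18.9% and 9.53% in fibroblast-like cells. Its log2 ratio over all other cells of the library was 4.04 (3.98 to 4.10) in BSA and 4.80 (4.75 to 4.86) in FGF8. The switch was found throughout the cluster: in its 5 sub-clusters, which included an *Actg2* and *Myh11* group and a histone-rich group, the share of *Ndufa4l2* lay between 92.8% and 99.1%, and that of *Cox4i2* between 26.4% and 58.2%.

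Chondrocyte-like cells, with 55 BSA and 135 FGF8 cells, came second for both isoforms. *Ndufa4l2* stood at 477 CPM (444 to 512) and 277 CPM (259 to 296) there, or 58.5% and 48.9% of its pair. *Cox4i2* stood at 162 and 91.6 CPM, or 16.4% and 10.7%. *Rgs5*, a pericyte marker, had 3 and 14 UMIs in all in these cells. The 9 smooth muscle or pericyte markers together stood at 259 CPM (BSA) and 281 CPM (FGF8) there. Their part in the levels of the 2 isoforms was not tested. The next level of *Ndufa4l2* in the BSA library was that of keratinocyte-like cells (124 CPM, 110 to 141), above fibroblast-like cells (87.5 CPM, 84.4 to 90.7), Schwann-like cells (57.9 CPM, 48.1 to 69.0) and erythroid-like cells (47.5 CPM, 36.9 to 60.1). The intervals of the last 2 overlapped. Macrophage-like cells were lowest in the BSA library, at 7.27 CPM (42 UMIs). In the FGF8 library erythroid-like (4.97 CPM, 3.15 to 7.46), endothelial-like (5.10 CPM, 2.55 to 9.13) and macrophage-like cells (7.91 CPM, 6.28 to 9.83) were lowest, with overlapping intervals.

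The other isoforms were scarce. *Cox7a1*, the heart and skeletal muscle form of subunit 7a, reached 23.5 and 12.03 CPM in smooth muscle or pericyte-like cells, from 68 and 44 UMIs, and 12.5 and 11.0 CPM in macrophage-like cells. *Cox6a2*, the muscle form of subunit 6a, was seen mostly in macrophage-like cells, which gave 34 of its 39 UMIs in the BSA library and 39 of 55 in the FGF8 library. *Cox6b2*, known as a testis form, was low in all types but made up 25.7% and 25.3% of its pair with *Cox6b1* in erythroid-like cells, from 45 and 75 UMIs, and 4.14% and 3.38% in fibroblast-like cells. *Cox7b2* had 14 UMIs in each library, and *Cox8b* had 12 in the BSA library and 0 in the FGF8 library. Where ratios were counted over all cells, 3 UMIs stood in for this 0.

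**Figure D2:**
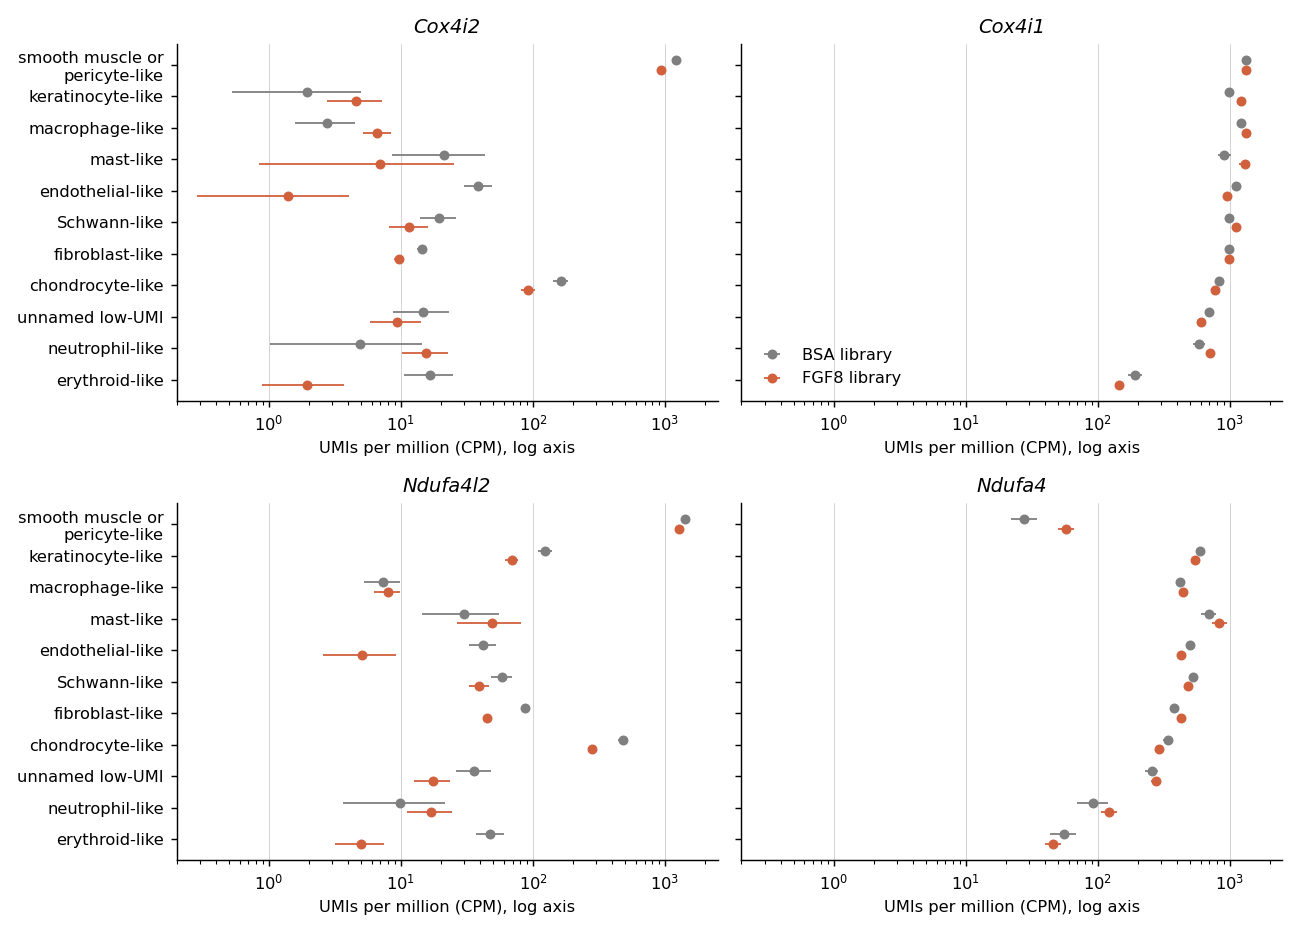
Levels of *Cox4i2* and *Ndufa4l2* (left) and of their ubiquitous partners *Cox4i1* and *Ndufa4* (right) in each cell type, in CPM on a log axis, with grey points for the BSA and orange points for the FGF8 library and bars for 95% counting intervals. *Cox4i1* spans 2.80 (BSA) and 3.20 (FGF8) on the log2 scale over the named types, with erythroid-like cells lowest. *Ndufa4* drops to 27.7 and 57.2 CPM in the smooth muscle or pericyte-like cells, where *Ndufa4l2* reaches 1408 and 1269 CPM.

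Among the genes with at least 100 UMIs, the 5 whose level spread most over the named cell types in both libraries were *Cox4i2*, *Ndufa4l2*, *Cox7a1*, *Ndufs1* and *Ndufa4*. The distance from the lowest to the highest type was 9.29 (BSA) and 9.39 (FGF8) on the log2 scale for *Cox4i2* and 7.60 and 7.99 for *Ndufa4l2*. It was 4.28 and 4.96 for *Ndufs1*, the largest core subunit of complex I, which ran from erythroid-like to keratinocyte-like cells. The 57 genes that are neither isoforms nor copies had a median distance of 3.16 (BSA) and 3.67 (FGF8), with erythroid-like cells, filled with haemoglobin transcripts, usually at the low end.

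To determine whether the genes differed between the libraries, log2 ratios of FGF8 over BSA were taken within each cell type, starting with the fibroblast-like cells. Their summed level hardly differed: 1.20% and 1.21% of UMIs, a log2 ratio of 0.0066 (0.0012 to 0.012). The sum joined ratios of both signs. Of the 65 genes with at least 10 UMIs in these cells 34 had a ratio above 0, where 43.1% of all genes did. The ratio was above 0.5 for 2 genes (15.1% of all genes) and below -0.5 for 4 (20% of all genes), but all genes include many with few UMIs and wide intervals. All genes with at least 100 UMIs had a median log2 ratio of -0.079 (quartiles -0.35 and 0.21).

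The core subunits of complex I stood together on the higher side. All 6 described here were higher in the FGF8 library, with a median log2 ratio of 0.26 (quartiles 0.17 and 0.32). *Ndufs7*, an iron-sulfur subunit close to the ubiquinone site, stood at 129 CPM (BSA) and 173 CPM (FGF8), a log2 ratio of 0.43 (0.38 to 0.48). *Ndufv1*, which binds NADH and the flavin, stood at 95.6 and 120.5 CPM (0.33, 0.27 to 0.39). The others were *Ndufs8* (99.2 and 122 CPM, 0.29), *Ndufs1* (32.6 and 38.1 CPM, 0.22), *Ndufv2* (165 and 184 CPM, 0.15) and *Ndufs3* (121 and 134 CPM, 0.15), and the intervals of all of them lay above 0. Within 1 sex, all 6 were above 0 in female-called cells and 5 of 6 in male-called cells, where *Ndufv2* gave -0.0035.

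The accessory subunits of complex I were divided. Of the 30, 14 were higher and 16 lower in the FGF8 library, with a median log2 ratio of -0.0077. *Ndufab1*, the mitochondrial acyl carrier protein, stood at 188 and 263 CPM, a log2 ratio of 0.48 (0.44 to 0.52). *Ndufa8* stood at 156 and 199 CPM (0.35, 0.31 to 0.40). At the other end *Ndufa1*, a small membrane subunit needed for assembly, stood at 145 and 102 CPM (-0.51, -0.56 to -0.46). *Ndufb4* stood at 102 and 72.9 CPM (-0.49, -0.55 to -0.42) and *Ndufv3* at 152 and 114 CPM (-0.41, -0.46 to -0.36). Subunits of the same complex thus stood on opposite sides of 0 with intervals that lay far apart.

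Of the 8 assembly factors, a small group, 6 were higher in the FGF8 library (43.1% of all genes were), with a median of 0.14 and ratios of both signs. *Ndufaf4* stood at 29.4 and 38.6 CPM, a log2 ratio of 0.39 (0.29 to 0.50), whereas *Ndufaf1* stood at 11.4 and 9.89 CPM (-0.20, -0.38 to -0.020).

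Of the 17 complex IV subunits with at least 10 UMIs 7 were higher, with a median of -0.051, which is close to the values of all genes. Among the complex I and IV genes with at least 100 UMIs, *Cox5a* held the highest ratio. *Cox5a*, a subunit on the matrix side of the complex, stood at 262 CPM (BSA) and 404 CPM (FGF8), a log2 ratio of 0.62 (0.59 to 0.66), and had transcripts in 94.1% and 96.5% of the cells. Its companion *Cox5b* stood at 224 and 236 CPM (0.075, 0.036 to 0.11). *Cox4i1* did not differ beyond counting error, at 987 and 989 CPM (0.0033, -0.016 to 0.022). *Cox6c* stood at 723 and 562 CPM (-0.36, -0.39 to -0.34). The low-oxygen forms were lowest among the complex I and IV genes with at least 100 UMIs: *Ndufa4l2* stood at 87.5 and 44.7 CPM (-0.97, -1.04 to -0.90) and *Cox4i2* at 14.5 and 9.60 CPM (-0.59, -0.76 to -0.42). With *Ndufa4* at 375 and 424 CPM, *Ndufa4l2* held 18.9% of the pair in the BSA library and 9.53% in the FGF8 library. *Cox6a2*, with 1 and 12 UMIs, had the highest ratio of any complex I or IV gene, 2.61, but with an interval from -0.14 to 8.03. *Cox8b*, with 8 and 0 UMIs, was under the minimum of 10.

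**Figure D3:**
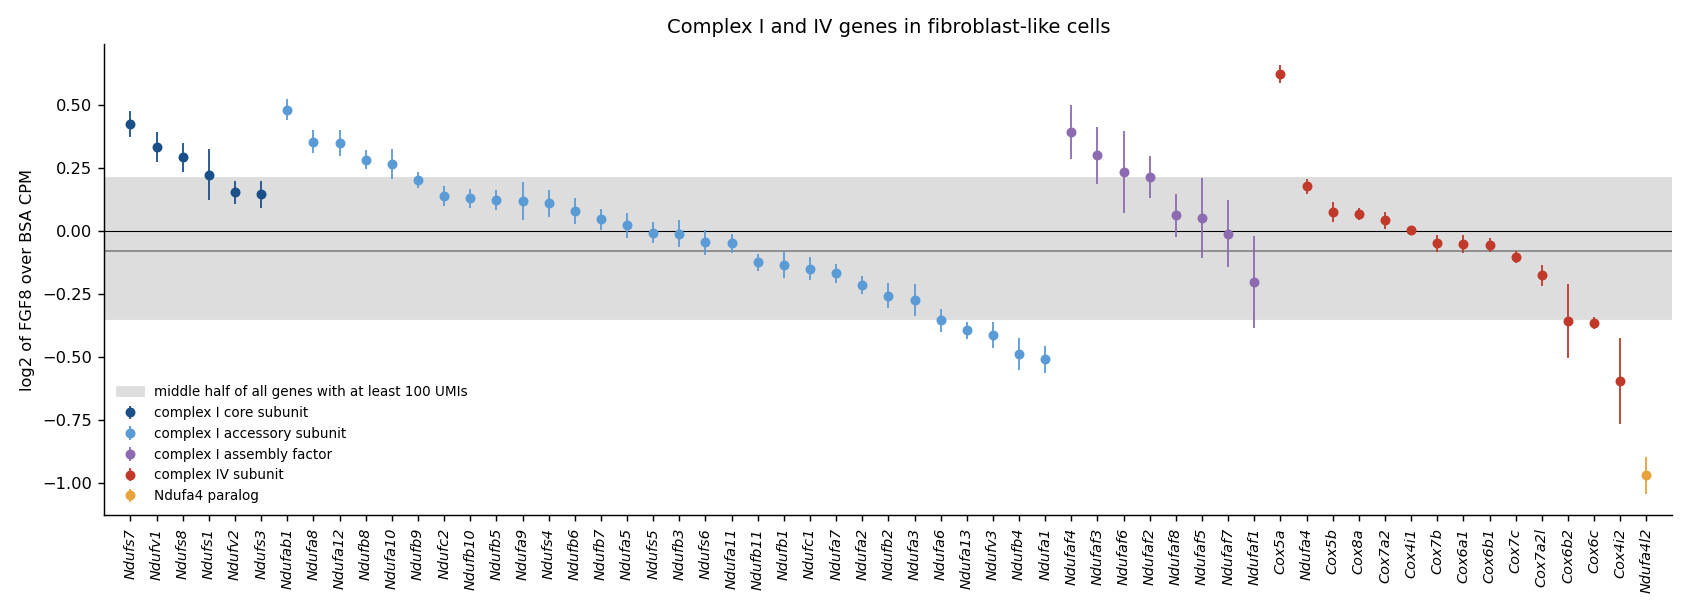
Log2 ratio of FGF8 over BSA CPM in fibroblast-like cells for 59 genes with at least 100 UMIs that are not copies, ordered by role and ratio, with 95% counting intervals; the grey band spans the quartiles of all genes (-0.35 to 0.21). The 6 core subunits (dark blue) lie above 0, *Cox5a* is highest at 0.62 and *Ndufa4l2* lowest at -0.97.

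The other lists of the respiratory chain, set beside these genes, showed small differences in the same cells. The 4 genes of complex II had a median log2 ratio of 0.077 (4 above 0), the 9 of complex III 0.047 (6 above 0) and the 17 of ATP synthase, complex V, 0.15 (10 above 0). The 26 other assembly factors of complexes I and IV had a median of 0.064 (17 above 0) and the 12 regulators of mitochondrial gene expression 0.10 (9 above 0), among which *Myc* was highest at 0.66. The 10 mitochondrially encoded subunits of complexes I and IV had a median of -0.16 (3 above 0), their sum going from 1.68% to 1.57% of UMIs. Cytosolic ribosomal proteins, the other large set of small and abundant transcripts, had a median of 0.10 (58 of 83 above 0). The hypoxia and glycolysis genes had a median of 0.58 (9 of 12 above 0), so *Ndufa4l2* stood opposite to most of the genes induced at low oxygen, together with *Car9* (-0.70). Genes of S and G2/M phase had a median of 0.94 (95 of 97 above 0), their sum standing at 3624 CPM in the BSA and 7202 CPM in the FGF8 library. In cells of both libraries at or below the median share of these transcripts the medians were 0.035 for complex I and -0.082 for complex IV, and 34 genes were above 0, while the summed ratio was -0.019. The share of all genes above 0 was not taken in these cells, so the count has no measure beside it.

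The fibroblast-like cells fell into sub-clusters, whose shares differed between the libraries. The sub-cluster led by *Prg4*, *Spp1*, *Comp* and *Scx* held 585 BSA and 1462 FGF8 cells, that led by *Zfp536* and *Sema3a* 664 and 952, and that led by *Lpl* and *Dlk1* 231 and 404. *Cox5a* was higher in the FGF8 library in each of the 3, with log2 ratios of 0.59, 0.29 and 0.48. *Ndufs7* gave 0.42, 0.30 and 0.45, *Ndufb4* -0.54, -0.43 and -0.45, and *Ndufa1* -0.54, -0.36 and -0.40, so each kept its sign in all 3. *Ndufa4l2* differed most in the *Prg4* sub-cluster, at 121 CPM (BSA) and 48.0 CPM (FGF8) or -1.33 (-1.42 to -1.24), against -0.64 and -0.59 in the other two. *Ndufaf4* gave 0.61 (0.47 to 0.76) there, while its ratios of -0.011 (-0.21 to 0.19) and -0.045 (-0.35 to 0.26) in the other two had intervals that included 0. A further small sub-cluster, led by *Adgrb3* and *Kcnj3*, held 22 BSA and 48 FGF8 cells. Its summed log2 ratio was -0.28 (-0.34 to -0.22), with 11 of 60 genes above 0 (51.9% of all genes).

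The libraries had nearly opposite sex makeup, so the ratios were also taken in cells of 1 called sex. In female-called fibroblast-like cells (1068 BSA, 607 FGF8) the summed level stood at 1.18% and 1.23%, a log2 ratio of 0.064 (0.056 to 0.073). In male-called cells (274 BSA, 1945 FGF8) it stood at 1.28% and 1.20%, a log2 ratio of -0.091 (-0.10 to -0.081). The sum thus had opposite signs in the sexes. Of 64 genes, 42 were above 0 in females and 22 in males, while 42.04% and 45.03% of all genes with at least 100 UMIs were. The median over all genes was -0.087 for female-called cells and -0.048 for male-called ones, so it did not move the same way. Of 59 genes with at least 100 UMIs in each sex, 52 had the lower ratio in male-called cells. Of the same 59, 21 were above 0 in both sexes, 20 below 0 in both and 18 differed in sign. These counts were not taken over all genes, so it is not known whether they are particular to these genes. The genes at the ends were chosen to have the same sign in both sexes, so only the sizes of their ratios are of note here: *Cox5a* gave 0.72 in females and 0.48 in males, *Ndufab1* 0.53 and 0.36, *Ndufs7* 0.54 and 0.33, *Ndufa1* -0.43 and -0.67, *Ndufb4* -0.46 and -0.62, and *Ndufa4l2* -1.04 and -0.41. The X-linked genes also had the lower ratio in male-called cells, with *Ndufb11* at -0.086 and -0.21 and *Cox7b* at 0.016 and -0.19, which differed in sign.

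**Figure D4:**
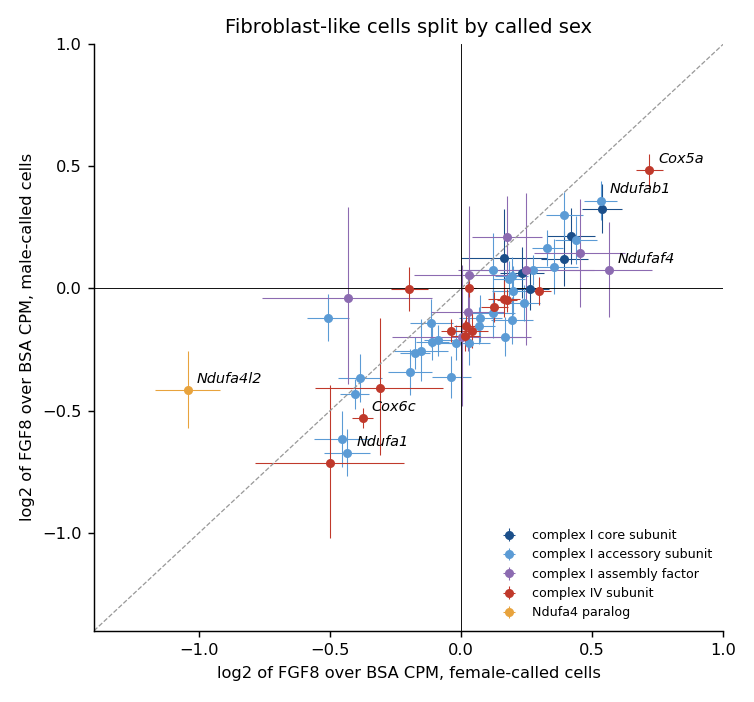
Log2 ratio of FGF8 over BSA CPM in female-called (horizontal) and male-called (vertical) fibroblast-like cells for 59 genes, coloured by role, with 95% counting intervals and the line of equality dashed. Most genes (52 of 59) lie below the dashed line, while *Cox5a* and *Ndufab1* are above 0 and *Ndufa1*, *Cox6c* and *Ndufa4l2* below 0 in both sexes.

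Outside the fibroblast-like cells the summed ratios ran in both directions. Macrophage-like cells (471 and 894 cells) gave -0.028 (-0.041 to -0.015), with 31 of 64 genes above 0 where 55.9% of all genes were. The 6 core subunits of complex I were all above 0 there too, with a median of 0.19. Among genes with at least 100 UMIs, *Ndufaf4* was highest, at 16.1 and 29.1 CPM (0.85, 0.51 to 1.21), and *Cox6b2* lowest, at 17.7 and 12.2 CPM (-0.53, -0.92 to -0.14). Keratinocyte-like cells (153 and 234 cells) gave -0.0013 (-0.021 to 0.018), with 34 of 63 above 0 (62.2% of all genes). Among genes with at least 100 UMIs, *Ndufaf2* was highest at 0.53 (0.080 to 0.99) and *Ndufa4l2* lowest, at 124 and 69.1 CPM (-0.85, -1.09 to -0.60). The sum gave -0.11 in female-called cells (48 and 32) and 0.27 in male-called cells (18 and 136). The median share of the genes per keratinocyte-like cell was 1.69% (BSA) and 1.52% (FGF8), so it was lower in the FGF8 library. The median mitochondrial share of these cells was 0.692% and 3.35% and their median depth 6236 and 12817.5 UMIs. The part of these differences in the result was not tested.

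In smooth muscle or pericyte-like cells the sum was lower in the FGF8 library by a log2 ratio of -0.17 (-0.18 to -0.15), and 13 of 63 genes were above 0 (52.3% of all genes). None of the 6 core subunits of complex I was above 0 there. *Ndufa4* was highest, at 27.7 and 57.2 CPM from 80 and 209 UMIs, a log2 ratio of 1.05 (0.67 to 1.44), whereas *Cox7a1* was lowest (-0.97, -1.55 to -0.40). The *Ndufa4* ratio was 2.02 in female-called cells (129 BSA, 60 FGF8) and 1.94 in male-called cells (37 and 156), both above that interval. Cells without a called sex count only in the pooled ratio, so its size is uncertain, and their part in it was not tested. Schwann-like cells (124 and 240 cells) gave -0.11 (-0.14 to -0.091) with 15 of 63 above 0 (49.1% of all genes). Among genes with at least 100 UMIs, *Ndufv1* was highest there, at 110 and 136 CPM (0.30, 0.071 to 0.54), and *Ndufb4* lowest, at 143 and 83.9 CPM (-0.76, -1.01 to -0.52). In Schwann-like cells at or below the median share of S and G2/M transcripts the sum gave -0.020.

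Endothelial-like and chondrocyte-like cells had the lower sums of largest size among types with little haemoglobin RNA. Endothelial-like cells (121 and 142 cells) held 1.37% (BSA) and 1.05% (FGF8), a log2 ratio of -0.39 (-0.42 to -0.37). Only 5 of 61 genes were above 0 (51% of all genes) and 23 were below -0.5 (16.2% of all genes). Complexes II, III and V had medians of -0.37, -0.48 and -0.24 and cytosolic ribosomal proteins of -0.18, whereas the mitochondrially encoded subunits summed to a log2 ratio of 0.44. The median mitochondrial share of these cells was 2.17% (BSA) and 3.03% (FGF8), and its part in the result was not tested. In cells at or below the median share of S and G2/M transcripts the sum gave -0.18. Among genes with at least 100 UMIs, *Ndufb4* was lowest, at 117 and 55.7 CPM (-1.07, -1.41 to -0.74), and *Ndufa8* highest, at 240 and 296 CPM (0.30, 0.12 to 0.48). In these cells the ratio moved with transcript length over all genes: the median was -0.19 in the lowest length quartile, up to 1997 bases, and 0.19 in the highest. Of 53 complex I and IV genes with at least 100 UMIs 44 lay in the lowest length quartile, with a median of -0.45, and the other 9 had a median of -0.28; the part of length in the result was not tested further. *Cox4i2* had 69 UMIs (BSA) and 3 UMIs (FGF8) in endothelial-like cells, and *Rgs5* 88 and 15, the 9 smooth muscle or pericyte markers standing at 169 and 73.3 CPM, and their part in the *Cox4i2* values was not tested.

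Chondrocyte-like cells held 1.09% and 0.817%, a log2 ratio of -0.41 (-0.44 to -0.38), with 5 of 61 genes above 0 (47.8% of all genes). *Ndufb4* was again lowest among genes with at least 100 UMIs, at 82.7 and 38.5 CPM (-1.10, -1.47 to -0.74), and *Cox7a2l*, a factor of supercomplex formation, highest, at 164 and 205 CPM (0.32, 0.11 to 0.53). By length, the all-gene median ran from -0.17 in the lowest to 0.033 in the highest quartile. Of 54 complex I and IV genes with at least 100 UMIs, 46 lay in the lowest length quartile, with a median of -0.39. The other 8 had a median of -0.43, and the part of length in the result was not tested. In female-called chondrocyte-like cells (40 in each library) the sum gave -0.52 (-0.56 to -0.48), and in male-called cells (11 and 80) -0.21 (-0.27 to -0.15).

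Cells of the blood lineages ran in opposite directions. Neutrophil-like cells (157 and 535 cells) gave 0.17 (0.11 to 0.22), with 41 of 58 genes above 0 (61.3% of all genes), but -0.31 when types were called cell by cell and -0.34 in female-called cells. Of the genes with at least 100 UMIs *Ndufv3* was lowest at -0.47, with an interval that included 0. Summed smooth muscle or pericyte markers stood at 59.2 CPM in the BSA and 473 CPM in the FGF8 neutrophil-like cells, with *Rgs5* at 4 and 121 UMIs, and their part in the result was not tested. Mast-like cells, with only 38 and 56 cells, gave 0.23 (0.17 to 0.29) and 46 of 58 above 0 (47.4% of all genes). Of the genes with at least 100 UMIs *Ndufb5* was highest at 0.98 (0.54 to 1.42) and *Ndufa6* lowest at -0.78 (-1.25 to -0.32). In these cells the smooth muscle or pericyte markers stood at 154 CPM (BSA) and 821 CPM (FGF8), the median mitochondrial share at 1.15% and 2.46% and the median depth at 7123.5 and 3146 UMIs, and their part in the result was not tested. Erythroid-like cells (83 and 613 cells) gave -0.57 (-0.63 to -0.51) with 3 of 60 above 0 (23.9% of all genes), but the median over all genes was itself -0.52 there, and without haemoglobin and mitochondrially encoded genes in the total the sum gave -0.055. The median share per cell went the other way, at 0.0461% (BSA) and 0.106% (FGF8), and in cells low in S and G2/M transcripts the sum gave 0.70. The lowest gene with at least 100 UMIs was *Ndufa1* at -1.14 (-1.60 to -0.67). In the low-UMI cells the sum gave -0.14 (-0.18 to -0.11) with 22 of 61 above 0 (56.7% of all genes), *Cox5a* being highest at 0.56 and *Ndufa6* lowest at -0.75 among genes with at least 100 UMIs.

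A few genes had the same sign almost everywhere. *Cox6c*, a small subunit without catalytic groups, was lower in the FGF8 library in all 10 named cell types, with intervals below 0 in 7, from -0.73 in chondrocyte-like to -0.0012 in neutrophil-like cells. *Ndufa6* was also lower in all 10, with intervals below 0 in 7. *Ndufa3* was lower in all 9 types where it had at least 100 UMIs and *Ndufb4* in all 7. Of 30 genes with at least 100 UMIs in all 10 types, 14 (46.7%) were above 0 in 2 types or fewer, which was so for 17.6% of all genes. None was above 0 in 8 or more types (14.2% of all genes), and those above 0 in most were *Cox4i1*, *Cox7a2l*, *Ndufb5*, *Ndufb8*, *Ndufb9* and *Ndufb10*, with 7 of 10 each. *Cox5a* was above 0 in 6 of 10, with intervals above 0 in all 6, and *Ndufab1* likewise.

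**Figure D5:**
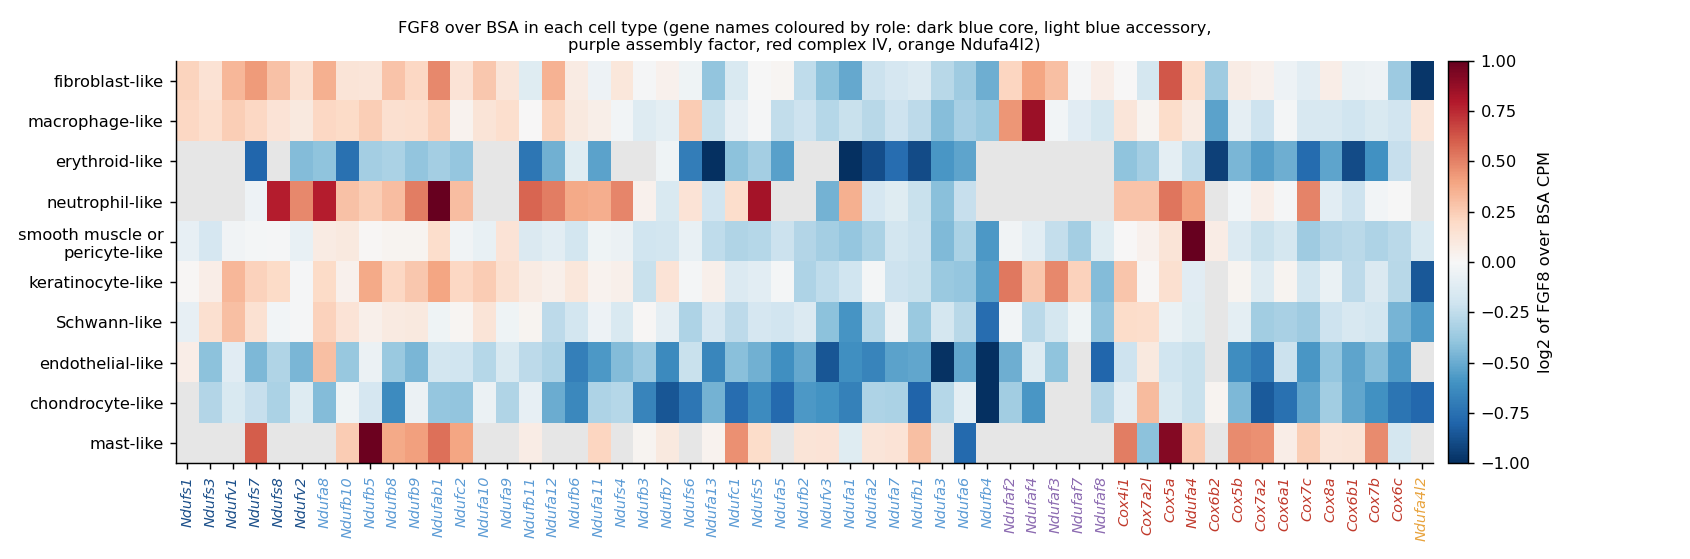
Log2 ratio of FGF8 over BSA CPM for 55 genes (columns, grouped by role) in the 10 named cell types (rows), red where the FGF8 library was higher and blue where it was lower, with colours reaching their limit at 1 and -1 and grey where a gene had fewer than 100 UMIs. The chondrocyte-like, endothelial-like and erythroid-like rows are mostly blue, and the columns of *Cox6c*, *Ndufa6*, *Ndufa3* and *Ndufb4* hold no clear red.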

How the data were processed

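Single-cell RNA sequencing of 2 pooled libraries, 1 per condition, was analysed. The authors deposited raw UMI counts per gene and barcode, made with Cell Ranger 9.0.0 on GRCm39 from 10x 3′ libraries, without normalization and before their cell filters; the library totals limit precision to the counting intervals given.

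Cells were kept if they had more than 200 and fewer than 7500 genes and less than 15% mitochondrial UMIs. They were normalized with SCTransform (sctransform 0.4.2), integrated by CCA and clustered in Seurat 5.3.0 (R 4.3.3, 30 components, resolution 0.05, sub-clusters 0.2, seed 42), after the study's methods. Sub-clusters were made without the genes described here and sex-linked genes. Those of the largest cluster were also made without the genes of the study's tables. Clusters were named from fixed marker lists, with at least 3 markers, and since the names were rebuilt they can differ from those of the study. The division of the largest cluster into fibroblast-like, keratinocyte-like and low-UMI cells by its sub-clusters, and the resolution for sub-clusters of smooth muscle or pericyte-like cells, 0.5, were chosen after seeing the clusters. Scrublet (scanpy 1.11.5) called 2 BSA and 1 FGF8 doublets and so did not work; no doublets were removed.

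Sums of UMIs over the cells of a type were taken in Python 3.11.15 (numpy 2.4.6, pandas 2.3.3, scipy 1.17.1) and plotted with matplotlib 3.10.9. CPM have exact Poisson intervals, shares Clopper-Pearson intervals and log2 ratios exact conditional binomial intervals, at 95%; genes or lists with fewer than 10 UMIs in a cell type gave no ratio. The computation was tested on simulated data. No test across samples could be made. No value column went unused (0 other columns). Length is that of the Ensembl canonical transcript in GENCODE vM39, and promoters are RefSeq windows of GRCm38.p6, used for sequence only.

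The genes, lists and alternatives were chosen with earlier results of these data known. Named genes are the isoforms and their partners, the core subunits, the 5 highest and 5 lowest in fibroblast-like cells (100 UMIs or more, equal sign in both sexes), the 5 most abundant, the X-linked, the 5 with most spread and the highest and lowest in each other type; genes with 1 direction in nearly all types and those whose intervals the text compares were added after their values were seen. A core subunit that the totals include is not reported here. The lists set beside them were complexes II, III and V, mitochondrially encoded subunits, other assembly factors, regulators, ribosomal, hypoxia and glycolysis, and S and G2/M genes. Alternatives were other cell filters, resolutions, integration, naming, scaling (TMM of edgeR 4.0.16), thinning to 2000 UMIs, weighting, sex, cell cycle and doublet scores.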

Additional observations from a re-analysis of the deposited data

Results flagged for a closer look

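In macrophage-like, erythroid-like, smooth muscle or pericyte-like, Schwann-like, endothelial-like and chondrocyte-like cells the summed level of the genes was lower in the FGF8 library, with log2 ratios of -0.028, -0.57, -0.17, -0.11, -0.39 and -0.41, whereas that of fibroblast-like cells was slightly above 0, at 0.0066. These differences between cell types were not tested, since each condition is 1 library.

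The summed ratio also had opposite signs in the sexes, 0.064 in females against -0.091 in males for fibroblast-like cells, and -0.11 against 0.27 for keratinocyte-like cells. Male-called BSA cells were few, 274 and 18 in these types, and the difference was not tested.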

How the results depend on the processing

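No paired analysis was possible because each condition is 1 library, and no replicate could be left out. In fibroblast-like cells TMM scaling and centring on the median of all genes gave complex I medians of 0.15 and 0.16, complex IV medians of 0.022 and 0.028 and sums of 0.079 and 0.085. Female-called cells gave 0.16, 0.035 and 0.064, and male-called cells a complex I median of -0.098, 22 genes above 0 and a sum of -0.091. The fibroblast-like sum was -0.00995 with types called cell by cell, -0.019 in cells low in S and G2/M transcripts, -0.0067 with cells weighted equally, -0.0019 and -0.0010 at resolutions 0.1 and 0.2, 0.022 with stricter filters and 0.0011 after thinning to 2000 UMIs. At resolution 0.1 the name fibroblast-like went to only 915 BSA and 1328 FGF8 cells, and at 0.2 to 912 and 1321. The cluster led by *Prg4* (608 and 1585 cells at 0.1, 609 and 1586 at 0.2) had no name there and was not in these sums. The complex I and IV medians lay between -0.098 and 0.16 and between -0.16 and 0.035 over the alternatives.

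The neutrophil-like sum was -0.34 in female-called cells, -0.31 with types called cell by cell, -0.082 without integration and -0.0048 without a mitochondrial limit. The keratinocyte-like sum was 0.27 in male-called cells, 0.073 with types called cell by cell, 0.020 without the highest Scrublet scores and 0.012 without mitochondrial and haemoglobin genes in the total. Other alternatives put it below 0, and it ran from -0.18 to 0.27 over those that gave a value. The macrophage-like sum was 0.0056 in cells low in S and G2/M transcripts, 0.017 with stricter filters and 0.013 after thinning, and the erythroid-like sum ran from -1.31 to 0.70, the latter in cells low in S and G2/M transcripts. Sums of the smooth muscle or pericyte-like (-0.23 to -0.10), Schwann-like (-0.19 to -0.020), endothelial-like (-0.50 to -0.14), chondrocyte-like (-0.52 to -0.21) and mast-like cells (0.058 to 0.32) had 1 direction under the alternatives that gave a value. The name keratinocyte-like or endothelial-like was given to no cluster under some. At resolution 0.2 (90 BSA and 150 FGF8 cells) and without integration (94 and 149) the mast-like name went to larger clusters. These were led by *Ptprcap* and *Skap1* and by no mast marker, so their sums are not those of the same cells.

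*Cox4i2* in smooth muscle or pericyte-like cells over all others gave 6.17 (BSA) and 5.84 (FGF8) in female-called cells, 5.77 and 6.26 with types called cell by cell, 6.34 and 5.96 in cells low in S and G2/M transcripts, 6.17 (BSA) with equal weights, and in the FGF8 library 6.59 without the highest Scrublet scores, 6.11 with stricter filters and 6.59 after thinning. *Ndufa4l2* gave 3.97 and 4.54 in female-called cells, 4.33 (BSA) in male-called cells, 3.97 (BSA) cell by cell, 4.11 and 4.13 in low-cycle cells, 4.43 and 5.10 with equal weights, 4.91 (FGF8) without high Scrublet scores, 4.27 and 4.53 with stricter filters and 4.43 and 5.04 after thinning. The causes were not tested. Leaving the largest cluster undivided, an alternative chosen after seeing the data, moved none of these values beyond its spread. The median of all genes was -0.52 in erythroid-like and 0.12 in keratinocyte-like cells, and TMM shifted neutrophil-like and keratinocyte-like cells by 0.16 and 0.14. Genes under 100 UMIs in a type, and the 38 BSA mast-like cells, give wide intervals.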
